A study of Mus musculus with 12 samples.

Results

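The mouse telencephalon was compared between embryonic day 14.5 (E14.5) and embryonic day 11.5 (E11.5) across all genes with enough reads. The comparison took 6 libraries of each age, both sexes counted with equal weight, from the 12 libraries of the series. Of the 26190 genes in the table, 14454 reached a mean count of 16 in 1 or more of the 4 groups of sex and age, and these were tested. All embryos were wild-type C57BL/6J mice, 3 males and 3 females at each age, and no group carried an allele or received a treatment. Each library was poly(A) RNA of a whole telencephalon, that is, the primordia of the cortex and of the basal ganglia together. The sexes had been told apart by genomic PCR, at E14.5 also by the shape of the gonads. The E11.5 embryos came from 3 mothers with a male and a female each, and the E14.5 embryos from 2 mothers, of which the second gave replicate 3 of each sex, as the sample table lists them. The methods text gives fewer litters than mothers at E11.5, a difference that was not settled here. Total counts ran from 17551763 to 28355361 per library. The sequence IDs have a prefix of their own in each of the 4 groups, and what it stands for is not given in the sources used here. Age, also within a sex, and whatever goes with the prefix cannot be told apart.

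At E11.5 the wall of the telencephalon consists mostly of dividing neuroepithelial cells and early radial glia, the stem cells that line the ventricle. Over the following days these cells give rise, directly or through intermediate progenitors that divide once more, to neurons that move outward, deep cortical layers first and upper layers later. The basal ganglia primordia make GABAergic interneurons and the projection neurons of the striatum. Glial cells follow, mostly at later stages than those sampled here. Over the same days vessels enter the tissue, the choroid plexus grows from the dorsal midline, and primitive red cells from the yolk sac are replaced in the circulation by red cells from the fetal liver.

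Between the ages, 3521 genes were called higher at E14.5 (24.4% of those tested) and 2744 were called lower (19.0%). A call needed an adjusted p under 0.05 in edgeR's quasi-likelihood test and an absolute log2 change above 0.5. Libraries of different ages stood 0.707 to 0.977 apart in root mean square log2 CPM difference (CPM, counts scaled to a fixed library total after normalization). Libraries of the same age and sex stood 0.149 to 0.251 apart, and of the same age and other sex 0.229 to 0.430. The median log2 change of all tested genes was -0.01. The larger changes were mostly increases. A log2 change above 2 was found for 819 called genes that were higher at E14.5 and below -2 for 204 that were lower, and past 4 for 161 and 42. Genes called higher held 10.3 to 11.9% of the counts of the E11.5 libraries and 22.2 to 25.8% at E14.5. Those called lower held 22.1 to 23.3% and 11.97 to 14.1%. For 6207 genes (42.9%) the whole 95% interval of the log2 change lay within -0.5 to 0.5. When each library was corrected for transcript GC content and length, 2873 genes were called higher and 3647 lower, with the median of all genes moved by -0.12 to -0.14.

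**Figure D1:**
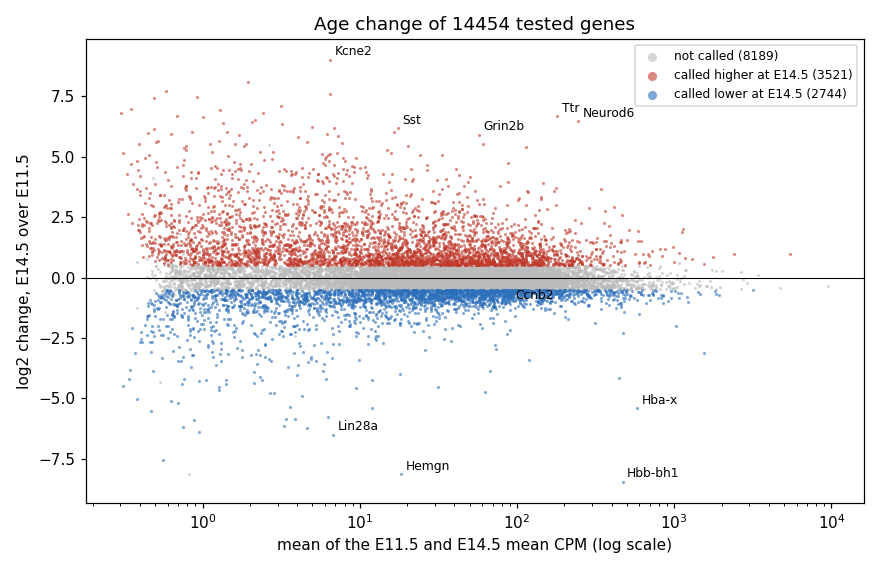
Log2 change of each of the 14454 tested genes (y axis, E14.5 over E11.5, both sexes with equal weight) against its mean CPM (x axis, log scale). Points in red are the 3521 genes called higher at E14.5, points in blue the 2744 called lower and points in grey the 8189 not called. The larger changes lie mostly above 0, with 161 called genes above 4 and 42 below -4, the latter with Hbb-bh1 and Lin28a among them.

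Among genes called at a mean of 100 or more counts per library and without overlap between the ages, the 10 with the largest increases were Kcne2, Zfhx2os, Ttr, Neurod6, Kcnh3, Ppp1r1b, Sst, Grm5, Nts and Grin2b. Kcne2 (chr16:92292389-92298133, GRCm38) and Ttr are genes of the choroid plexus epithelium, a potassium channel subunit and the thyroid hormone carrier transthyretin. Kcne2 had 8 counts in all 6 E11.5 libraries together (0 to 0.216 CPM, median 0) and 1735 at E14.5 (7.99 to 17.7 CPM, median 13.1), a ratio of pooled CPM of 219.9 (95% counting interval 111 to 510.2). Ttr was at 1.59 to 7.32 CPM at E11.5 (median 2.96) and at 184 to 581 at E14.5 (median 323), a log2 change of 6.68 (standard error 0.41, adjusted p = 3.05e-07 in edgeR's test). The 6 E14.5 libraries differed widely among themselves for both genes, though far less than the ages did. Neurod6 (chr6:55677819-55681263) encodes a basic helix-loop-helix factor of postmitotic excitatory cortical neurons. Its CPM ran from 3.14 to 8.495 at E11.5 (median 5.52) and from 367 to 625 at E14.5 (median 474), with a log2 change of 6.46 (standard error 0.24, adjusted p = 2.87e-09). That the ages did not overlap was a condition for the choice of these 10 genes, and is no result about them.

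Grin2b and Grm5 encode glutamate receptors, an NMDA receptor subunit and a metabotropic receptor. Grin2b rose from a median of 1.54 CPM (0.955 to 4.03) to 96.6 (73.9 to 174), and Grm5 from 0.506 (0.236 to 0.798) to 31.3 (17.9 to 51.1), log2 changes of 5.91 and 6.04 (standard errors 0.37 and 0.35). Sst and Nts encode the neuropeptides somatostatin, of a class of interneurons, and neurotensin. Sst (chr16:23889581-23890844) was at 0.227 to 0.861 CPM (median 0.454) and then at 27.1 to 42.2 (median 33.8), and Nts at 0.0472 to 0.352 (median 0.194) and then at 9.87 to 15.5 (median 10.97). Their log2 changes were 6.17 and 5.92 (standard errors 0.11 and 0.25, adjusted p = 8.3e-15 and 8.84e-11). Ppp1r1b, which encodes DARPP-32, the signal integrator of striatal projection neurons, rose from a median of 0.189 to 12.1 CPM (log2 change 6.19, standard error 0.29). Kcnh3, a voltage-gated potassium channel of the forebrain, went from 17 pooled counts to 1364, a ratio of 81.4 in CPM (95% counting interval 50.6 to 140.1). The noncoding RNA Zfhx2os lies antisense to Zfhx2. It went from 9 counts to 1760 (ratio 198, interval 104 to 434), whereas the log2 change of Zfhx2 was 0.02. Whether reads were counted by strand is not given in the sources used here, so reads of the pair may not be told apart.

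**Figure D2:**
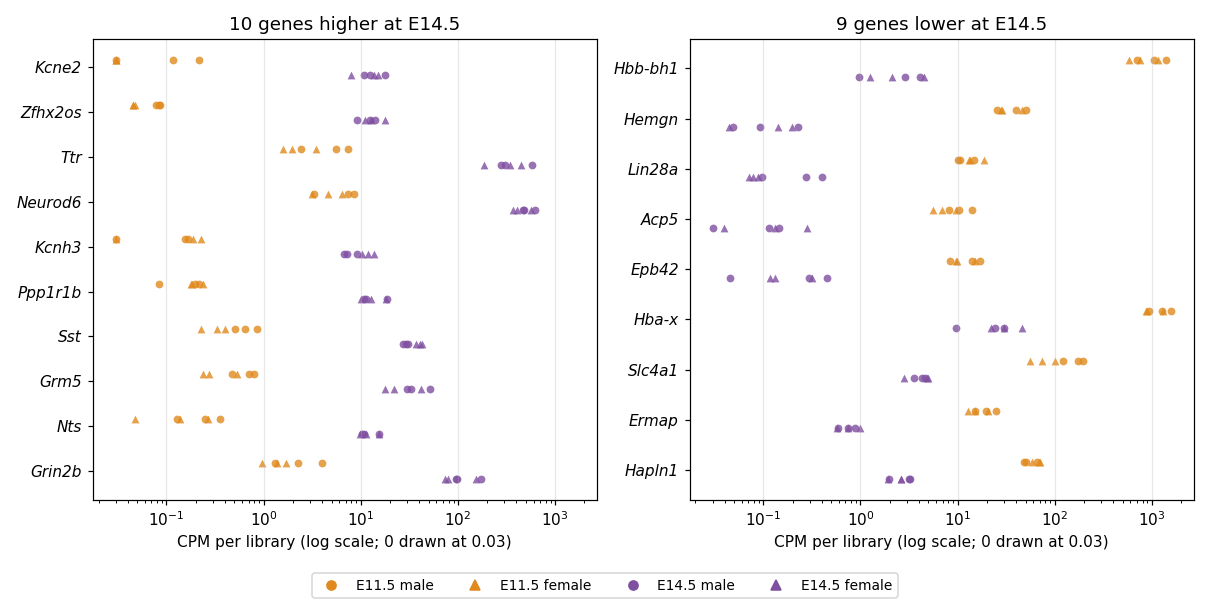
CPM in each of the 12 libraries (x axis, log scale, 0 drawn at 0.03) for the 10 genes with the largest increase and 9 of the 10 with the largest decrease (y axis), chosen among genes called at a mean of 100 or more counts and without overlap between the ages. Orange marks E11.5, purple E14.5, circles males and triangles females. The ages lie apart by the choice of the genes, with medians of 5.52 and 474 CPM for Neurod6.

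Among the 10 largest decreases were those of Hbb-bh1, Hemgn, Lin28a, Acp5, Epb42, Hba-x, Slc4a1, Ermap and Hapln1, of which 6 are genes of red cells. Hbb-bh1 (chr7:103841638-103843162) and Hba-x encode embryonic globins. Hbb-bh1 was at 575 to 1384 CPM at E11.5 (median 903) and at 0.973 to 4.47 at E14.5 (median 2.48), a log2 change of -8.45 (standard error 0.39, adjusted p = 3.25e-08 in edgeR's test). Hba-x fell from 866 to 1556 CPM (median 1103) to 9.59 to 46.3 (median 27.2), log2 change -5.42 (standard error 0.32). Hemgn encodes hemogen, a nuclear protein of blood progenitors. Its pooled counts were 5033 at E11.5 and 17 at E14.5, a CPM ratio of E11.5 over E14.5 of 292 (95% counting interval 182 to 502). Epb42 and Slc4a1 encode proteins of the red cell membrane, protein 4.2 and the anion exchanger band 3, and Ermap a red cell surface protein. Their log2 changes were -5.76, -4.75 and -4.59 (standard errors 0.33, 0.22 and 0.21).

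Lin28a (chr4:134003330-134018816), an RNA-binding protein of early embryonic progenitors that blocks the maturation of let-7 microRNAs, was at 10.02 to 18.7 CPM at E11.5 (median 13.2). At E14.5 it was at 0.0710 to 0.397 CPM (median 0.0931), 21 counts in 6 libraries against 1837, a ratio of 86.3 (interval 56.3 to 139.7). Hapln1, a link protein of the hyaluronan matrix, fell from a median of 61.4 (48.7 to 70.3) to 2.62 CPM (1.91 to 3.24), log2 change -4.53 (standard error 0.12). Acp5, an acid phosphatase known from osteoclasts and macrophages, went from 1266 counts to 17, a ratio of 73.4 (interval 45.7 to 126). In all, 90 called genes rose from a mean of under 3 counts per library at E11.5 and 32 fell to under 3 counts at E14.5. Among the first, Unc13c, a presynaptic priming factor, went from 13 to 838 counts. Among the second, Rhag, of the Rh blood group complex, went from 938 to 14 and Pklr, the pyruvate kinase of red cells and liver, from 898 to 12.

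Promoters of the genes that moved together are shown for the red cell and proliferation groups, with the somatostatin promoter as an example of a gene that rose. Each window is RefSeq sequence of the GRCm38.p6 assembly, 5′ to 3′ on the strand of the gene, from 250 bases before to 50 after the start. Capitals mark exact matches on either strand. In Hba-x and Hemgn they mark the GATA site (AGATAA or TGATAA, bound by GATA factors such as Gata1) and the CACCC box (CCACCC, bound by Klf factors), of which Hemgn has no match to the latter, in Ccnb2 and Cdk1 the CHR element (TTTGAA) and the CCAAT box (CCAAT, bound by NF-Y), both known from genes of the G2 and M phases, and in Sst the cyclic AMP response element (TGACGTCA).
Hba-x, chr11:32276350-32276649, plus strand: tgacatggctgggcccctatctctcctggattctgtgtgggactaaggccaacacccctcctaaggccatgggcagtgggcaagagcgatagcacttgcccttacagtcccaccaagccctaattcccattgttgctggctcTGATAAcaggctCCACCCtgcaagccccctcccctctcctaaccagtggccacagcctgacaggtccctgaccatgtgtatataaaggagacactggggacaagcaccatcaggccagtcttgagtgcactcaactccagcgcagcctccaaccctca
Hemgn, chr4:46404134-46404433, minus strand: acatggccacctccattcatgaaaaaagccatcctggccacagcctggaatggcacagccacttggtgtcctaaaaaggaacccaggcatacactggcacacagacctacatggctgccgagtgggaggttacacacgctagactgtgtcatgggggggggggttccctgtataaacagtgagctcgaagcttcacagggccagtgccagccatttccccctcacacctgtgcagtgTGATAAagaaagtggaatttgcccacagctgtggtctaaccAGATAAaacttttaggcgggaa
Ccnb2, chr9:70421505-70421804, minus strand: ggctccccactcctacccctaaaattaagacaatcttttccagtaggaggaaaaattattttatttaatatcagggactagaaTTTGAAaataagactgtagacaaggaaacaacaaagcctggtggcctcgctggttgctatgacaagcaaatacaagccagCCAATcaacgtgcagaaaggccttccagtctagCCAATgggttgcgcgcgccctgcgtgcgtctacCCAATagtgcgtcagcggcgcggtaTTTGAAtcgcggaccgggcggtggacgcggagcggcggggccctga
Cdk1, chr10:69352863-69353162, minus strand: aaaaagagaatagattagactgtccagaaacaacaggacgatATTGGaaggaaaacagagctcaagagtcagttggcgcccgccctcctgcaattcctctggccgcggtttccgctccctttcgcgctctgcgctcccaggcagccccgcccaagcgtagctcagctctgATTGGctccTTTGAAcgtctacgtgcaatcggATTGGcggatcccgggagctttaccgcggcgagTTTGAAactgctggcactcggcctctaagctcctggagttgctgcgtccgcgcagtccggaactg
Sst, chr16:23890795-23891094, minus strand: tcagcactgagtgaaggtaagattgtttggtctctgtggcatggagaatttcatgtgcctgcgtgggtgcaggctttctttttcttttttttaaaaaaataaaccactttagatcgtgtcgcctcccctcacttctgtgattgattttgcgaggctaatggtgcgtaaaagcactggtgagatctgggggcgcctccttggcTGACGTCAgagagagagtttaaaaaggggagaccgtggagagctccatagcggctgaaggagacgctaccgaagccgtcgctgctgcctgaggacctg

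A promoter window was listed for 11260 of the tested genes (77.9%), taken as the first window where a gene had several. A GATA site stood in 11 of 15 windows of red cell and embryonic globin genes (73.3%), against 9.48% of all 11260 windows. The CACCC box stood in 11 of these 15 and in 37.6% of all. In the cell proliferation genes, 13 of 33 windows held the CHR element (39.4%) and 25 of 33 the CCAAT box (75.8%), against 11.5 and 38.8% of all windows. Of the 15 red cell and embryonic globin windows, 4 held the CHR element (26.7%) and 7 the CCAAT box (46.7%). Ccnb2 had 3 CCAAT boxes and Cdk1 had 3, each with 2 CHR elements, of which the ones nearest the start began at position 5 in Ccnb2 and -15 in Cdk1, counted from the start. Over all genes called lower, the CHR share was 15.4% and the CCAAT share 41.0%, and over all genes called higher 9.83 and 34.8%. The element CAGATG or CAGCTG, an E-box bound by neurogenic factors of the Neurod and Neurog kind, stood in 24.6% of all windows. Its share was 29.1% for genes called higher and 25.0% for those called lower. It stood in 4 of the 13 windows of neuronal genes (30.8%) and in 4 of the 27 windows of synapse and excitability genes (14.8%). The cyclic AMP response element shown for Sst stood in 3.26% of all windows, in 2.70% of those of genes called higher, in 1 of the 13 and in none of the 27. These shares describe letters in a window, and no binding was measured.

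Genes of neurons rose as a group. All 22 tested members of a list of neuronal genes were called higher and none lower, with a median log2 change of 2.02 against -0.01 for all tested genes. Their share of library counts was 0.236 to 0.302% at E11.5 and 0.805 to 1.02% at E14.5, without overlap. In tissue as a whole, more cells of a type and more RNA per cell cannot be told apart. Rbfox3, which encodes the neuronal antigen NeuN, was at 6.81 to 8.73 CPM (median 8.16) and rose to 35.1 to 59.4 (median 44.3), log2 change 2.49 (standard error 0.06, adjusted p = 5.28e-13). Celf4, an RNA-binding protein of neurons, rose by 2.03 on the log2 scale (standard error 0.05), from 30.0 to 38.9 CPM to 121 to 157. The steps differed widely within the list. The neuronal tubulin Tubb3 rose from a median of 709 to 1429 CPM (log2 1.01) and the neurofilament gene Nefm by 0.68, both already present at E11.5. Doublecortin (Dcx), a microtubule protein of migrating neurons, went from 443 to 1863 CPM, tau (Mapt) from 47.3 to 592, Neurod2 from 4.93 to 217 and the kinase gene Camk2b from 1.81 to 59.6. Neurod2 and Neurod6 had the largest changes of the list, log2 5.39 and 6.46.

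Of 40 tested genes of synapses and excitability, 38 were called higher and none lower (median log2 change 2.08). Homer1, a scaffold of the postsynaptic density, and Syt11 were the other two, with log2 changes of 0.13 and 0.21. Gria4 and Grik2, subunits of AMPA and kainate receptors, had the smallest adjusted p. Gria4 rose from 11.2 to 12.1 CPM (median 11.7) to 30.7 to 51.0 (median 39.8), log2 change 1.76 (standard error 0.05, adjusted p = 5.33e-13). Grik2 rose from a median of 31.6 to 98.1 CPM, log2 change 1.55 (standard error 0.05). Counted by family, 16 of 18 tested subunits of ionotropic glutamate receptors were called higher, 13 of 14 GABA-A receptor subunits, 18 of 21 calcium channel subunits and 61 of 77 genes named for potassium channel subunits (the noncoding Kcnmb4os2 and Kcnq1ot1 among them), and of these families potassium channels alone had members called lower, 6 in number. Gria2, the subunit that sets the calcium permeability of AMPA receptors, went from 17.3 to 271 CPM and Gria1 from 3.27 to 76.4. Kcnn4, a calcium-activated potassium channel of red cells and lymphocytes, changed by -3.70 on the log2 scale. Sodium channel subunits went both ways, with 8 of 12 higher and 3 lower. Scn3b and Scn2a rose by 3.06 and 2.69. Of the clustered protocadherins, cell surface proteins whose combinations give neurons an identity, 53 of 55 tested members were called higher and none lower (median log2 change 2.03). These genes share exons within each cluster, so the division of reads among them is uncertain.

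Genes of axon growth and guidance were mostly higher at E14.5, with 21 of 29 called higher and 3 lower (median log2 change 1.25). Sema6d, a transmembrane semaphorin, rose from 29.6 to 36.7 CPM (median 33.9) to 134 to 179 (median 160.2), log2 change 2.21 (standard error 0.06). Epha4, a receptor of ephrins, rose by 1.07 (standard error 0.05). The adhesion molecules Chl1, Cntn1 and Cntn2 rose by 3.55, 3.04 and 2.88, and the receptors Epha5 and Plxna4 by 3.34 and 3.26. The 3 genes called lower were Efna5, Cntnap2 and Unc5c. Efna5, an ephrin ligand, fell from 38.8 to 48.2 CPM (median 42.8) to 17.03 to 26.5 (median 20.3), log2 change -1.07 (standard error 0.06). After the GC content and length correction 6 of the list were called lower, where 3647 of all 14454 genes were (2744 without it). Over all 22 Eph receptors and ephrins, 8 were called higher and 9 lower (5 lower in a fit of the females alone), and over 28 semaphorins and plexins 16 were called higher, while 6 were called lower after the correction.

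**Figure D3:**
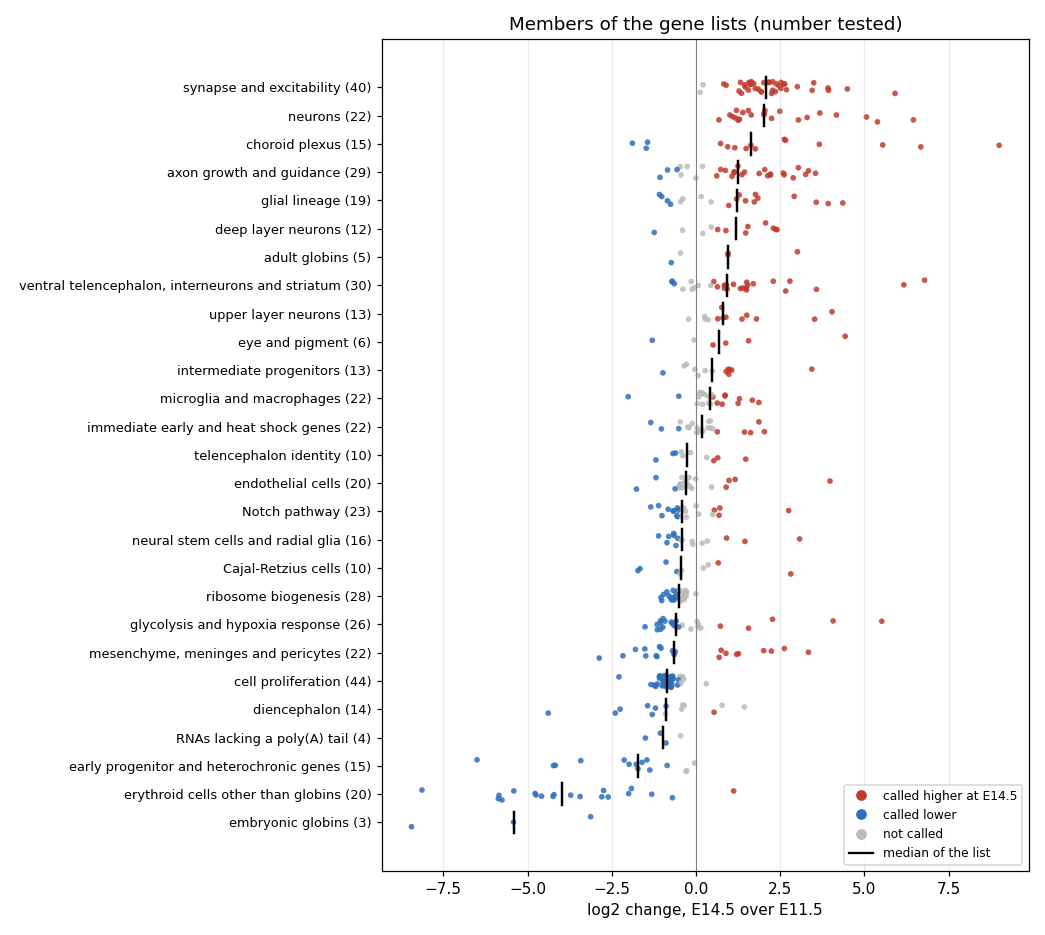
Log2 change with age (x axis) of each tested member of 27 gene lists (y axis, number of tested members in brackets), ordered by the median of the list (black bar). Red points were called higher at E14.5, blue points lower and grey points were not called, and the lists run from the embryonic globins (median -5.42) to the synapse genes (median 2.08).

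Markers of cortical neurons were mostly called higher, for deep and for upper layers. Of 12 deep layer genes 8 were called higher and 1 lower, and of 13 upper layer genes 9 were called higher and none lower, with medians of 1.18 and 0.80. Tbr1, the transcription factor of layer VI, rose from 101 to 121 CPM (median 116) to 291 to 351 (median 303), log2 change 1.48 (standard error 0.06, adjusted p = 1.91e-11). Bcl11b (Ctip2), of layer V and of the striatum, rose by 2.37 (standard error 0.09), from a median of 74.1 to 389 CPM. Fezf2 rose by 0.64 and Sox5 by 1.54. Crym, a thyroid hormone binding protein, was the deep layer gene called lower, at 9.01 to 23.6 CPM and then 3.88 to 9.98, so that its ages overlapped (log2 change -1.24, standard error 0.27, adjusted p = 0.00142). Among upper layer genes, Unc5d, a netrin receptor of multipolar cells and later of layer IV, rose from 2.82 to 4.85 CPM (median 3.21) to 45.4 to 74.4 (median 54.9), log2 change 4.04 (standard error 0.18). Mdga1, an adhesion molecule of upper layers, rose by 1.51 (standard error 0.08) and Cux2 by 0.89. Cux1 had a log2 change of -0.22 and was not called.

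In the ventral telencephalon, interneuron and striatum list, 21 of 30 genes were called higher and 3 lower (median log2 change 0.92). Gad1, which makes GABA, rose from 11.5 to 17.1 CPM (median 13.7) to 54.6 to 81.8 (median 67.6), log2 change 2.29 (standard error 0.06, adjusted p = 6.79e-13). Gad2, Dlx1 and Npy rose by 1.504, 1.11 and 3.58. The dopamine receptor genes of the striatum, Drd1 and Drd2, were at medians of 0.0227 and 0.803 CPM at E11.5 and of 4.13 and 2.24 at E14.5. The 3 called lower were Sp8, Nkx2-1 and Gsx1, transcription factors of ventral progenitors. Sp8 fell from 39.2 to 49.7 CPM (median 44.2) to 23.8 to 32.8 (median 26.8), log2 change -0.72 (standard error 0.06), and Nkx2-1 changed by -0.70. Without the second E14.5 mother 1 gene of the list was called lower.

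Of the early progenitor and heterochronic genes, which mark the young neuroepithelium or time its development, 12 of 15 were called lower and none higher, with a median log2 change of -1.72. Beside Lin28a they were Trim71, Hmga2, Crabp2, Lin28b, Sall4, Crabp1, Igf2bp1, Dnmt3b, Igf2bp3, Igf2bp2 and Fgf15. Hmga2, a chromatin protein of young stem cells, fell from a median of 848 CPM (710.4 to 1032) to 49.6 (24.0 to 73.1), log2 change -4.18. Dnmt3b, a de novo DNA methyltransferase, was at 20.6 to 24.9 CPM (median 21.7) and then at 6.71 to 8.18 (median 7.03), log2 change -1.601 (standard error 0.06, adjusted p = 1.02e-11). The RNA-binding proteins Igf2bp1, Igf2bp2 and Igf2bp3 changed by -1.72, -1.37 and -1.46 and the retinoic acid binding protein gene Crabp2 by -3.42. Not called were Wnt7b, Mycn and Hmga1, with -0.29, -0.28 and -0.04.

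Neural stem cell and radial glia genes split. Of 16, 7 were called lower and 3 higher (43.75 and 18.75%, against 19.0 and 24.4% of all tested genes). Nes (nestin), Sox2, Vim and Hes5 were among the first, with log2 changes of -0.86, -0.66, -0.66 and -1.11. Slc1a3, Fabp7 and Tnc were the second, genes that mark radial glia as distinct from the earlier neuroepithelium. Slc1a3, the glutamate transporter GLAST, rose from 56.8 to 69.8 CPM (median 63.1) to 146 to 208 (median 172), log2 change 1.45 (standard error 0.06). Fabp7, the brain lipid binding protein, rose from 199 to 241 CPM to 367 to 468, log2 change 0.91 (standard error 0.05). Tnc, tenascin C, rose by 3.08. Of 13 intermediate progenitor genes 6 were called higher and 1 lower (46.2 and 7.69%, against 24.4 and 19.0% of all tested genes). In males 6 were called higher and 3 lower (median log2 change 0.10), and in females 8 and 1 (median 0.68). Eomes (Tbr2), their defining transcription factor, rose from 108 to 129 CPM (median 115) to 213 to 241 (median 229), log2 change 0.97 (standard error 0.04, adjusted p = 1.11e-11), and the somatostatin receptor gene Sstr2 by 3.44 (standard error 0.06). The proneural factors of the pair Neurog2 and Neurog1 went apart. Neurog2 rose by 0.99 and Neurog1 changed by -0.98 (standard error 0.13), from 17.6 to 24.2 CPM to 6.86 to 15.02.

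In the Notch pathway, which holds progenitors back from becoming neurons through signals between neighbouring cells, 10 of 23 genes were called lower and 4 higher (median log2 change -0.41). These were 43.5 and 17.4% of the list, against 19.0 and 24.4% of all tested genes. The receptor gene Notch3 fell from 181 to 249 CPM (median 213) to 62.1 to 116 (median 82.4), log2 change -1.34 (standard error 0.05). The target genes Hes5, Hey1, Heyl, Nrarp and Hes1 changed by -1.11, -0.67, -0.68, -0.83 and -0.54, and the ligand genes Dll1 and Jag1 by -0.54 and -0.55. Dtx1, a ubiquitin ligase of the pathway, went the other way, from 8.60 to 14.6 CPM (median 10.7) to 57.5 to 96.5 (median 73.2), log2 change 2.75 (standard error 0.08). Notch2, Rfng and Hey2 were the other genes called higher. The age changes of Notch3 and Dtx1 differed between the sexes, at -1.80 in males and -0.89 in females for Notch3 and 2.28 and 3.22 for Dtx1. With the GC content and length correction neither difference was called, at 0.36 (adjusted p = 0.142 in edgeR's test) and 0.31 (adjusted p = 0.209) as female minus male log2 change. Of 10 Cajal-Retzius genes, of the first-born neurons of the cortical surface, 2 were called higher and 4 lower. The shares were 20 and 40%, against 24.4 and 19.0% of all tested genes. Reelin (Reln), the defining product of these neurons, rose from a median of 37.3 to 293 CPM (log2 change 2.81). The transcription factor genes Lhx5 and Ebf2 changed by -1.73 (standard error 0.11) and -1.66. Lhx5 was at 24.5 to 32.3 CPM and then at 5.99 to 12.04. Cacna2d2, a calcium channel subunit, rose by 0.66 (standard error 0.05), and by 0.30 after the GC content and length correction, under the threshold of 0.5.

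Genes of the cell cycle were lower at E14.5. Of 44 proliferation genes 38 were called lower and none higher, with a median log2 change of -0.86, and their share of library counts went from 1.30 to 1.34% to 0.703 to 0.956%, without overlap. Ccnb2, a mitotic cyclin, fell from 119.8 to 127 CPM (median 123) to 47.3 to 69.1 (median 56.7), log2 change -1.08 (standard error 0.06, adjusted p = 4.64e-10). Ccne2, a cyclin of the entry into S phase, changed by -0.96 (standard error 0.06), and Cdk1, the mitotic kinase whose promoter is shown above, by -0.69. All 9 tested minichromosome maintenance genes, of the replication helicase and its relatives, were called lower (median -0.96), as were 14 of 20 centromere protein genes (9 in a fit of the males alone). The largest decrease of the list was that of cyclin D1 (Ccnd1), from a median of 774 CPM to 161 (log2 change -2.29). Cyclin D2 (Ccnd2) had 0.30 and was not called, nor were Mki67, Top2a, Kif11, Cdk4 and E2f1, with changes between -0.48 and -0.36. The steps of this list were thus mostly smaller than those of the neuronal and synaptic genes.

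Genes of ribosomes and metabolism were called in part. Of 28 ribosome biogenesis genes 14 were called lower and none higher (median -0.52). Npm1 (nucleophosmin), a nucleolar chaperone, fell from 1475 to 1837 CPM (median 1619) to 679 to 949.8 (median 788), log2 change -1.02 (standard error 0.05), and Gnl3 (nucleostemin) changed by -0.97 (standard error 0.05). Of 82 cytosolic ribosomal protein genes 27 were called lower (32.9%, against 19.0% of all tested genes) and none higher (median -0.43). After the GC content and length correction 10 of them were called lower, where 3647 of all 14454 genes were. Of 78 mitochondrial ribosomal protein genes 13 were called lower, a share of 16.7% against 19.0% of all tested genes. Together the cytosolic ones held 3.74 to 3.92% of library counts at E11.5 and 2.56 to 3.15% at E14.5. These genes have many processed copies in the genome, so their counts depend on how such reads were shared. The median log2 changes of 35 proteasome and 37 complex I subunits were -0.30 and -0.07. Of 26 genes of glycolysis and the response to low oxygen, 15 were called lower and 5 higher (median -0.61). Ldha, Tpi1, Pgk1 and Gapdh changed by -1.51, -1.16, -1.06 and -0.73. Within the same pathway the isoforms of brain rose. Aldoc (aldolase C) went from 2.29 to 2.90 CPM (median 2.54) to 112 to 127 (median 120.2), log2 change 5.52 (standard error 0.05, adjusted p = 3.78e-18), while Aldoa changed by -1.06. Eno2, the neuronal enolase, rose by 2.27 (standard error 0.09), while Eno1 changed by -0.70. Tubulins showed a like exchange of isoforms, with Tubb3, Tubb2b and Tubb2a up by 1.01, 0.98 and 1.55 and Tuba1b, Tubb4b and Tubb6 lower, at -0.56, -0.74 and -1.10.

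Of 19 tested genes of the glial lineage 11 were called higher and 4 lower (median 1.20). These were 57.9 and 21.1% of the list, against 24.4 and 19.0% of all tested genes, so the share called lower was near that of all genes. The nuclear factor I genes Nfia, Nfib and Nfix, which act in the switch of progenitors toward glia, rose by 1.84, 2.92 and 3.57. Bcan, the proteoglycan brevican, rose from 0.493 to 1.04 CPM (median 0.906) to 12.3 to 22.7 (median 16.9), log2 change 4.36 (standard error 0.14). Slc1a2, the glutamate transporter GLT-1, rose by 1.47 (standard error 0.05) and Aldh1l1, an enzyme of astrocytes, by 3.93. The astrocyte genes Gfap and S100b were not tested, since Gfap had at most 4 counts and S100b at most 5 in any library. Among genes of the oligodendrocyte lineage, Olig2, which also marks ventral progenitors, fell from 42.6 to 47.9 CPM (median 44.2) to 16.3 to 27.1 (median 20.5), log2 change -1.09 (standard error 0.08). Egfr, Pdgfra and Sox10 changed by -1.02, -0.76 and -0.85. Which cells of the tissue the counts of these genes came from was not tested, so the values do not show a change of that lineage.

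The defining transcription factors of the telencephalon were present at both ages. All 10 were tested, and 3 were called higher and 3 lower (30% each, against 24.4 and 19.0% of all tested genes). After the GC content and length correction 1 was called higher, where 2873 of all 14454 genes were. Lhx2, a selector gene of the cortex, was at 331 to 369 CPM (median 342) and then at 176 to 337 (median 253), with a log2 change of -0.44 that was not called. Pax6, of cortical radial glia, was at 98.3 to 121 CPM and then at 83.5 to 109, overlapping between the ages (log2 change -0.16, not called). Emx2, Nr2e1 and Six3, of progenitors, changed by -1.19, -0.69 and -0.61. Of 28 listed Hox genes, of the hindbrain and trunk, none had enough counts to be tested and 15 were at 0 in every library. Diencephalon genes were low. Of 14 tested 7 were called lower (50%) and 1 higher (7.14%). The summed level of the list went from 89.3 to 110.4 CPM to 52.6 to 79.4, and whether the dissection border had a part in this was not tested. Tcf7l2, of the thalamus, fell from 16.6 to 24.1 CPM to 7.45 to 11.8 (log2 change -1.20, standard error 0.08), and Shox2 from 371 counts to 18. The call of Gbx2 (log2 change 0.54, adjusted p = 0.0253) was lost when any 1 of 7 libraries was left out, with changes of 0.41 to 0.53. Of 21 eye and pigment genes 6 were tested, 4 of them called higher and 1 lower (66.7 and 16.7%). Rlbp1, a retinoid binding protein of retinal and other glia, rose from 1.27 to 3.68 CPM (median 2.37) to 43.3 to 59.5 (median 49.3), and Aldh1a3 by 1.56 (standard errors of the log2 changes 0.16 and 0.11). The defining eye genes Crx, Rpe65 and Cryaa had at most 8 counts in any library, and Six6, of the eye field and hypothalamus, changed by -1.30 on the log2 scale (standard error 0.33) at low levels that overlapped, 0.509 to 1.21 CPM and then 0.137 to 0.535.

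Blood genes had the largest median changes of the lists. Of 20 tested red cell genes other than globins 19 were called lower, with a median log2 change of -3.97, and all 3 tested embryonic globins, whose summed level went from 3708 to 6465 CPM to 138 to 508. The list had 1 member called higher, Cd24a (log2 change 1.12, standard error 0.05), which young neurons also express. At E14.5 it held a median of 1016 CPM of the 1212 CPM summed over the list (CPM not corrected for length). The red cell regulators Gata1 and Klf1 changed by -4.78 and -3.72, and the transferrin receptor gene Tfrc, used by dividing cells in general, by -0.70. Adult globins did not fall as a group. Hba-a1 was at 641 to 1257 CPM and then at 466 to 653, overlapping between the ages (log2 change -0.74, standard error 0.12, adjusted p = 0.000206, and in a fit of the females alone a change of -0.45 under the threshold), and Hbb-b1 rose from 23.7 to 51.4 CPM to 241 to 475 (log2 change 3.01, standard error 0.22). Adult globin genes have near-identical copies, and the deposited values of Hbb-b2 and Hbb-bt were the same, so the split of reads among copies is uncertain. With normalization factors computed without blood, globin, histone and non-polyadenylated genes, 3516 genes were called higher and 2746 lower.

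Of 15 tested choroid plexus genes 12 were called higher and 3 lower, and the latter differ in kind. Transport and secretion genes of the mature epithelium rose, among them Kcnj13 and Slc4a5 by 5.54 and 3.66 beside Ttr and Kcne2. Transcription factors of the dorsal midline from which it grows fell. Otx2 went from 41.1 to 50.8 CPM (median 47.4) to 13.7 to 18.8 (median 16.5), log2 change -1.48 (standard error 0.06), Msx1 changed by -1.89 (standard error 0.09) and Lmx1a by -1.44. Of 22 mesenchyme, meninges and pericyte genes 9 were called higher and 13 lower (40.9 and 59.1%, against 24.4 and 19.0% of all tested genes). Col3a1 and Lum, a collagen and a matrix proteoglycan of connective tissue, changed by -1.04 and -1.52 (standard errors 0.05 and 0.06) and the transcription factor genes Twist1 and Prrx2 by -2.17 and -1.80. Rgs5, of pericytes, rose from 5.38 to 12.7 CPM (median 8.05) to 69.0 to 111 (median 89.6), log2 change 3.34 (standard error 0.18). With it rose the pericyte channel subunits Abcc9 and Kcnj8 (1.26 and 0.69) and the meningeal enzyme Aldh1a2 (2.62).

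Of 20 endothelial genes 4 were called higher and 3 lower, shares below the 24.4 and 19.0% of all tested genes. After the GC content and length correction 9 were called lower, where 3647 of all 14454 genes were (2744 without it). Leaving out E11.5 male 3, E11.5 female 1, E14.5 male 3 or E14.5 female 3 gave 5 lower. Plvap, of the diaphragms of leaky vessels, fell from 22.4 to 29.1 CPM (median 25.3) to 5.45 to 9.58 (median 7.27), log2 change -1.77 (standard error 0.10), and Emcn, a sialomucin of veins and capillaries, changed by -1.19 (standard error 0.07). The glucose transporter gene Slc2a1 changed by -0.62. The genes called higher were the tight junction genes Cldn5 and Ocln and the transporter genes Abcb1a and Slco1c1 of the blood-brain barrier, with log2 changes of 0.98, 1.16, 0.89 and 3.98. The general endothelial genes Pecam1, Cdh5 and Kdr had -0.31, -0.50 and -0.28 and were not called. Of 22 microglia and macrophage genes 9 were called higher and 2 lower (median 0.41). These were 40.9 and 9.09% of the list, against 24.4 and 19.0% of all tested genes. The 2 called lower were Tmem119 and Ptprc, the latter (log2 change -0.51) no longer called when any 1 of 7 libraries was left out. Lyve1, of border macrophages and lymphatic vessels, rose from 1.596 to 3.85 CPM to 6.27 to 11.1 (log2 change 1.87, standard error 0.19) and Mrc1 by 0.86, and the microglial purine receptor gene P2ry12 by 1.29. Tmem119, in adult brain a microglial gene and in the embryo also one of skeletal and connective tissue, fell from 9.91 to 13.3 CPM (median 11.7) to 2.70 to 3.12 (median 2.85), log2 change -2.01 (standard error 0.07). Of 22 immediate early and heat shock genes 5 were called higher and 3 lower, shares below the same 24.4 and 19.0%. Ier2 changed by -1.03 and Arc by 1.44 (standard errors 0.08 and 0.13), and Fos, Egr1, Hspa1a and Jun were not called.

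Some abundant genes held their level closely. Kctd20, Aamp and Brd1 had the narrowest intervals around 0 among genes of at least 100 CPM. Kctd20 was at 176 to 187 CPM at E11.5 and at 167 to 189 at E14.5, with a log2 change of -0.02 (95% interval -0.08 to 0.04). Aamp had -0.04 (-0.09 to 0.02) and Brd1 -0.01 (-0.07 to 0.05). In the latter pair the sexes differed in sign. Aamp changed by -0.22 in males and 0.14 in females, and Brd1 by -0.23 and 0.21.

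Taken in each sex apart, the comparison gave 3563 genes higher (24.7%) and 2943 lower (20.4%) in males, 45.0% in either direction, and 3613 (25.0%) and 2831 (19.6%) in females, 44.6% in either direction. The same direction was called in both for 4605 genes, 70.8% of the male and 71.5% of the female calls, and opposite directions for 15. Of the 6265 genes called over both sexes, 99.7% changed in the same direction in males and females. These genes were called on the mean of the male and female changes, a choice that itself favours equal signs. The share therefore cannot test whether the sexes agree, and no such share is given here for all tested genes. The age change itself differed between the sexes for 2440 genes (16.9%), with 1482 toward a larger value in females (10.3%) and 958 toward males (6.63%). With the GC content and length correction the counts of such genes were 176 and 206. In 5 groups of equal size by GC content, the median log2 change of the group with the lowest (31.9 to 44.6%) was 0.17 in males and -0.24 in females, and that of the group with the highest (56.1 to 73.2%) was -0.18 and 0.30. The median change over both sexes stayed between -0.05 and 0.06 across the 5 groups. Because the sexes of each age have different sequence ID prefixes, a sex and whatever goes with the prefix cannot be told apart. Of 16 listed RNAs that lack a poly(A) tail, which poly(A) libraries take up to a varying degree, only 4 were tested. The median log2 change of these 4 was -1.91 in males and 0.22 in females, and their part in the difference was not tested. Lars2, whose locus holds a sequence of ribosomal RNA kind, and Rpph1, the RNA of ribonuclease P, overlapped between the ages (455 to 1254 and then 140.1 to 913 CPM for Lars2), and the log2 change of Rpph1 was -3.29 in males and 0.28 in females.

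**Figure D4:**
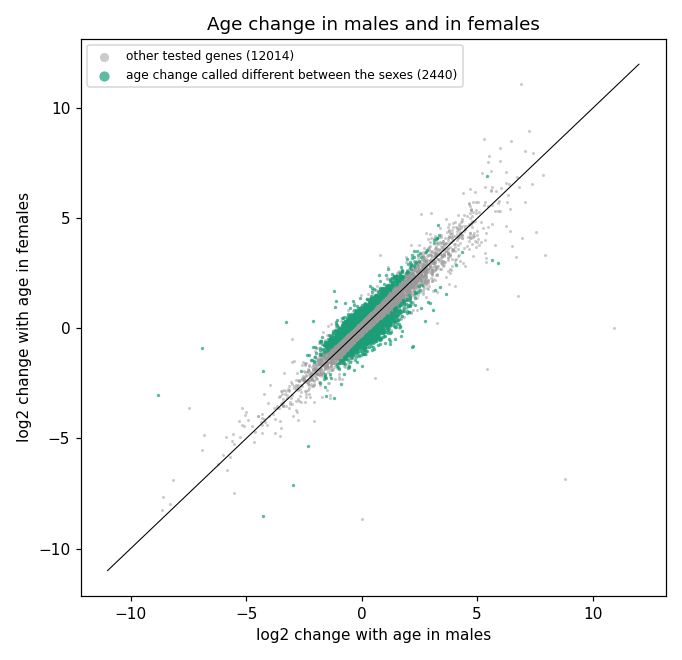
Log2 change with age in females (y axis) against that in males (x axis) for the 14454 tested genes, with the line of equal change. The 2440 genes whose change was called different between the sexes (green) lie along both sides of the line, mostly near its centre. Over all tested genes the Pearson correlation of the male and female changes was 0.90.

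Genes that span much of the genome rose more often than short ones. Of 881 genes with a span over 200 kb 57.3% were called higher and 10.7% lower (median log2 change 0.73), and of 3748 with a span under 10 kb 20.9% and 21.2%. In 5 groups of equal size by span, the share called higher stayed between 18.9 and 22.5% in the first 4 and was 40.0% in the last (74.6 kb and more). The same step was found within each group of GC content, where 37.4 to 43.0% of the longest genes were called higher and 19.1 to 24.0% of the shortest. It was also present in both sexes, with median log2 changes of 0.32 in males and 0.23 in females in the last group. Grin2b and Grm5, with spans over 400 kb, are of this kind. The length of the transcript went with it (15.5% called higher in the shortest of 5 groups and 34.9% in the longest). Among the shortest transcripts 23.0% of the 87 genes of the longest span and 16.3% of the 1542 of the shortest span were called higher, and among the longest transcripts 42.8% of 1522 and 40.0% of 40. The median log2 changes did not follow the span in each group. In the group of second longest transcripts the median was 0.21 for the longest span and 0.27 for the shortest, and 17.02 and 12.7% were called lower. Noncoding genes were called higher in 33.9% of 604 cases and lower in 16.7%, and protein-coding genes in 23.9 and 19.1% of 13850.

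**Figure D5:**
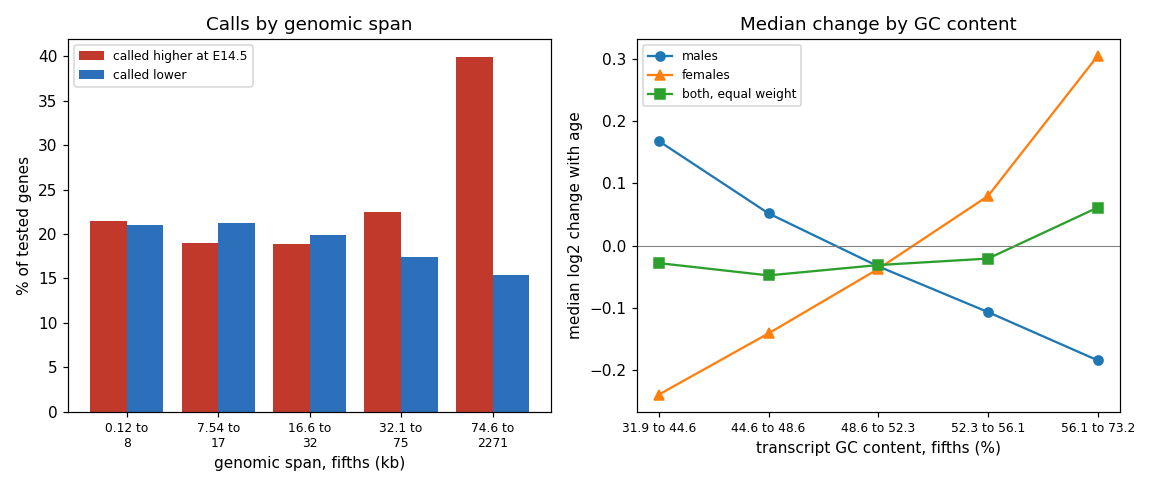
Left, share of tested genes called higher (red) or lower (blue) at E14.5 (y axis, %) in 5 groups of equal size by genomic span (x axis, kb), with 40.0% called higher in the group with the longest span. Right, median log2 change with age (y axis) in 5 groups by GC content of the transcripts (x axis, %), where males fall from 0.17 to -0.18, females rise from -0.24 to 0.30 and the mean of both stays near 0.

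The 2 litters at E14.5 differed along the same direction as the ages. The genes were first called without the 2 libraries of the second mother, which gave 3341 higher and 2537 lower at E14.5. Of the 3341, both embryos of the second mother lay above both same-sex embryos of the first for 2029 genes (60.7%) and below for 177 (5.30%). Of the 2537 called lower, they lay below for 1156 (45.6%) and above for 303 (11.9%). Among the genes not called, the shares were 21.5% above and 26.6% below. By these counts the embryos of the second mother lay farther from E11.5 than those of the first. A litter, its stage within the day and its handling cannot be told apart. The lowest and highest values given above for E14.5 hold this difference within them.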

How the data were processed

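RNA of 12 telencephalons was sequenced by the study as stranded poly(A) libraries, in paired reads of 100 bases. Per the labels, the authors aligned reads to GRCm38 (mm10) with STAR 2.6.0c and deposited expected counts per gene, of which 82.7% are whole numbers, and FPKM values (scaled to gene length and library size). How reads matching several genes were shared is not given in the sources used here. Groups came from the labels and mothers from the study's sample table.

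Counts were rounded and tested with edgeR 4.0.16 (R 4.3.3, TMM normalization, robust quasi-likelihood fit with 1 mean per group, 8 residual degrees of freedom), with Benjamini-Hochberg adjustment over 14454 genes. This fit took the 12 embryos as independent, although they came from 5 mothers. Its standard errors and p-values leave out the likeness of littermates (correlation within a mother 0.39 in limma voom). With mother as a random effect in limma voom 3503 genes were called higher and 2741 lower. With counts summed per mother these were 3589 and 2735. The age change is the mean of the male and female changes. Counting intervals are at 95% and cover counting error only. Alternatives were DESeq2 1.42.0, limma 3.58.1 on log2(FPKM + 0.1) and log2(FPKM + 1), other normalizations, count minimums and thresholds, left-out libraries, mother as a block, the replicate number as a block and a loess correction for GC content and length. A permutation test set out for shares of library counts is not reported, because the lists were chosen with results known.

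Members and gene lists were chosen with earlier results of these data known. Full statistics go to genes named by rule: the 10 largest changes per direction among genes called at a mean of 100 or more counts and without overlap; in each of 28 lists the 2 members of smallest adjusted p and the called member of smallest adjusted p against the majority; the 4 genes per direction of highest CPM with under 3 counts at the other age; and the 3 narrowest intervals within 0.1 of no change among genes of at least 100 CPM. Some genes that fall under the rule are not reported here. Other members named, and the 5 promoters shown, were chosen after their values were seen.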

Additional observations from a re-analysis of the deposited data

Results flagged for a closer look

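Among 160 groups of 6 libraries, 1 for each named gene and age, 5 held a library far from the others, and chance alone flags about 1 in 20. They were Ppp1r1b in E11.5 male 3 (0.084 CPM, next lowest 0.179), Emcn in E11.5 female 1 (22.6 CPM, next highest 20.2), Ier2 in E11.5 female 1 (33.5 CPM, next lowest 37.4), Pklr in E14.5 female 1 (0 CPM, next lowest 0.089) and Kctd20 in E11.5 female 3 (187 CPM, next highest 179.9).

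For 14 of the 80 named genes the age change differed between the sexes, a share near the 16.9% of all tested genes. The test was that of the difference in edgeR (adjusted p under 0.05 and a difference above 0.5). The change was higher in females, as female minus male log2 change, for Sst (1.51), Rbfox3 (0.75), Mdga1 (0.62), Dtx1 (0.94), Notch3 (0.90), Plvap (0.62), Eno2 (0.57), Ier2 (0.83), Lars2 (1.30) and Rpph1 (3.57). It was lower in females for Ccne2 (-0.59), Gria4 (-0.64), Grik2 (-0.59) and Emcn (-0.53). Apart from Rpph1, each of these 14 genes changed with age in the same direction in both sexes. After the GC content and length correction, 2 of the 14 were still called, Lars2 (1.25) and Rpph1 (2.85), and the difference for Sst was 1.21 (adjusted p = 0.0505). The sexes of each age have different sequence ID prefixes, so sex and whatever goes with the prefix cannot be told apart.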

How the results depend on the processing

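The counts of 3521 genes higher and 2744 lower at E14.5 ranged from 3424 to 3577 and from 2630 to 2808 when each library was left out. At the adjusted p alone 5796 and 6011 genes passed (males 5380 and 5492, females lower 5436, differing between the sexes 2982 toward females and 2669 toward males). With an absolute log2 change above 1 the counts were 1966 and 834 (males 2009 and 950, females 2049 and 897, differing between the sexes 95 and 136). With limma on log2(FPKM + 1), 2298 genes were higher over both sexes and 2276 in males, and 311 differed toward males, against 621 on log2(FPKM + 0.1). On log2(FPKM + 0.1) the counts of genes called higher were below those of the edgeR fit. They were 3169 over both sexes (3521 in edgeR), 3131 in males (3563) and 3450 in females (3613). The counts of genes called lower and of those differing toward females were above it. There 1917 genes differed toward females (1482 in edgeR) and 3503 were lower in males (2943 in edgeR). With the GC content and length correction 176 and 206 genes differed between the sexes, and 177 and 212 together with the replicate block. The cause of these shifts was not tested.

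Same-numbered libraries of the 2 ages did not deviate together (correlations of -0.237 to 0.0085), so the replicate numbers do not pair the ages. Within E11.5 a number stands for a mother shared by a male and a female, as does number 3 at E14.5. With the replicate number as a block 3519 genes were called higher and 2751 lower, and 1498 and 984 differed between the sexes. Of the values of named genes under the alternatives, 2527 kept their direction and call, 29 lost the call and 2 changed sign, both of Rpph1 (0.070 with counts summed per mother and 0.29 in females alone). For Lars2 the call was lost in females alone (-0.40). Genes near 0 at an age are limited by depth, and their ratios carry wide counting intervals.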

Other observations

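Further families were counted in the same test, in which 24.4% of all genes were called higher and 19.0% lower. Of 259 solute carrier genes 92 were called higher and 38 lower. Slc6a7, a proline transporter of brain, rose from a median of 0 to 1.82 CPM. Slc6a13, a GABA and taurine transporter, rose by 4.90 on the log2 scale, while Slc16a3, a lactate exporter, changed by -2.98. Of 32 unclustered cadherins and protocadherins 19 were called higher and 5 lower, with Cdh12 and Cdh13 up by 4.30 and 4.22 and Cdh3 (P-cadherin) lower, at -1.28. Of 40 kinesins 14 were called higher and 13 lower. The axonal transport motors Kif5a and Kif1a rose by 1.86 and 1.31, and the mitotic motors Kif15 and Kif20a changed by -0.86 and -0.85.

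Of 39 collagens 11 were called higher and 17 lower. After the GC content and length correction 6 were called higher, where 2873 of all 14454 genes were (3521 without it). Col2a1, the cartilage collagen, changed by -1.32, and Col19a1 rose by 3.48. Of 16 Sox genes 4 were called higher and 4 lower, near the shares of all genes. The neuronal factors Sox11 and Sox4 rose by 0.76 and 1.19, and the progenitor factors Sox2 and Sox9 changed by -0.66 and -0.59. Of 30 forkhead genes 6 were called higher and 11 lower, among them Foxo6 at 3.68 and Foxa1, of the ventral midline of the brainstem, at -4.48. Of 35 aminoacyl-tRNA synthetase genes 10 were called lower, among them Iars at -0.52 beside Lars2.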
